A study of Mus musculus with 24 samples.

Results

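A set of 8 genes that mark the interneurons born in the medial ganglionic eminence was followed in the cerebral cortex of mouse neonates after prenatal exposure to nano-sized particulate matter (nPM) from traffic. The members were chosen by gene symbol, as Nkx2-1, Lhx6, Sox6, Satb1, Maf, Sst, Npy and Pvalb, and all 8 were found among the 48709 genes of the count table. Pregnant C57BL/6J dams were placed in nPM or in filtered air, 5 h a day and 3 days a week, from gestational day 2 to birth, and the labels name no genetic modification. The labels give the concentration as 300 mg/m3 and the study's methods in micrograms, the labels give both day 5 and an age of 3 to 5 days, and the methods name the C57BL/6NJ substrain. The groups were nPM females, nPM males, control females and control males, each with 3 pups, and cortex and whole blood of the pups gave 12 libraries per tissue of the 24 in all. The labels give no litter. By the study's methods the pups of a sex and exposure were taken from more than 1 litter, so a dam may be shared between the sexes, and p-values here measure the spread between these libraries.

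Medial eminence interneurons arise in the ventral forebrain and migrate into the cortex, where they become the somatostatin and parvalbumin classes of inhibitory neuron. The transcription factor Nkx2-1 sets this fate in the progenitors and is then switched off in the cells bound for the cortex, while its target Lhx6 stays on. Sox6 and Satb1 act after Lhx6 in migration and maturation, and Maf shapes the later choice between classes. Sst and Npy encode the neuropeptides somatostatin and neuropeptide Y, and Pvalb encodes the calcium-binding protein parvalbumin, which rises late in the maturing cortex.

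The cortex libraries held 22301409 to 33804371 counts on genes, with RNA integrity numbers (RIN) of 9.4 to 9.9. All 10 cortical excitatory neuron markers had counts in every cortex library. No library was a copy of another, since the smallest chi-square per gene was 7.015 where sampling alone gives about 1. Control male replicate 1 stood apart in markers of neighbouring tissue, with the lowest summed level of striatal genes (171 CPM, next lowest 281 CPM) and of choroid plexus genes (29.3 CPM, next lowest 231 CPM). It was also the lowest in endothelium genes (94.6 CPM, next lowest 131 CPM). The same held for basal forebrain and pallidum genes (12.3 CPM, next lowest 16.9 CPM) and for genes shared by GABA neurons (523 CPM, next lowest 545 CPM). The main values that it moves are also given without it. CPM is a gene's count relative to its library's total, with the total scaled by TMM (trimmed mean of M values).

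Sst was the most abundant member per length, at 115.5 ± 10.9 RPKM (counts relative to gene length and library total, SD, n = 12 cortex libraries). Npy followed at 59.4 ± 6.28 RPKM, and the libraries of these neuropeptide genes did not overlap. The transcription factors were lower, in the order Satb1 at 8.55 ± 0.801, Lhx6 at 4.66 ± 0.501, Maf at 3.13 ± 0.271 and Sox6 at 3.10 ± 0.221 RPKM. Of these neighbours in the order, only Maf and Sox6 had ranges that overlapped. Pvalb stood at 0.695 ± 0.579 RPKM and Nkx2-1 at 0.0928 ± 0.0688 RPKM, the lowest of the 8, and neither range reached the neighbour above it. Thus the early Sst and Npy transcripts were plentiful in neonatal cortex and those of Pvalb and Nkx2-1 were scarce.

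**Figure D1:**
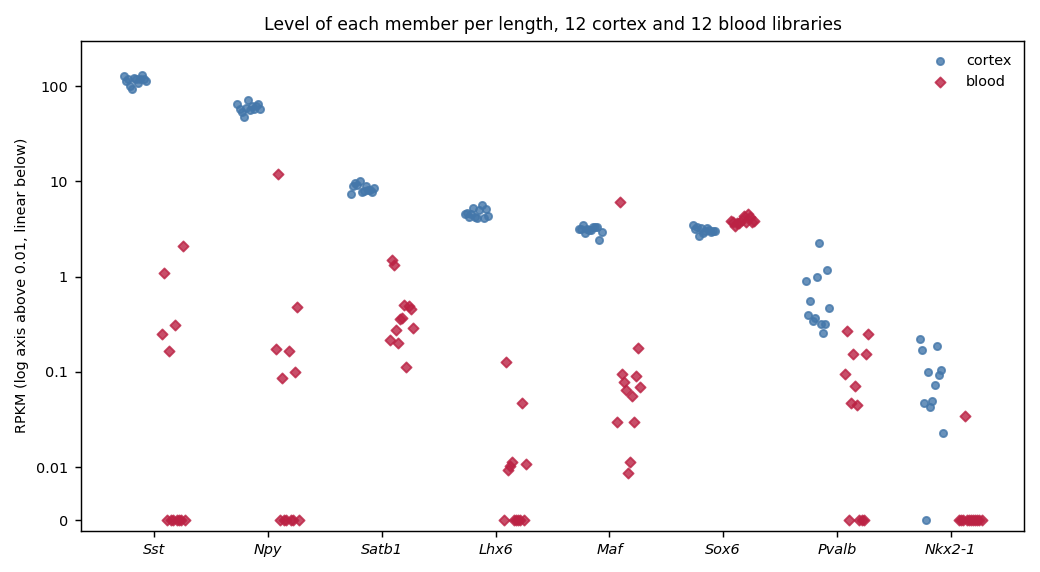
Level of each member per length in RPKM (log axis above 0.01, linear below) in the 12 cortex libraries (circles) and the 12 blood libraries (diamonds), 1 point per library. In cortex Sst and Npy sit above the transcription factors and Nkx2-1 lowest, while in blood Sox6 alone sits near or above its cortex level in every library.

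The spread between cortex libraries was small for the 6 well-counted members. The coefficient of variation of the TMM-scaled CPM was 6.17% for Sox6, 8.76% for Maf, 8.95% for Sst, 9.92% for Satb1, 10.5% for Npy and 10.6% for Lhx6. For Pvalb it was 83.0% and for Nkx2-1 73.3%. All 8 lay above what counting alone gives at their mean counts, which was 1.43% for Satb1, 2.20% for Sst, 21.5% for Pvalb and 36.3% for Nkx2-1, and the excess covers differences between pups as well as technique. The lowest and highest libraries differed 8.80-fold in Pvalb and at most 1.52-fold in the 6 well-counted members.

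**Figure D2:**
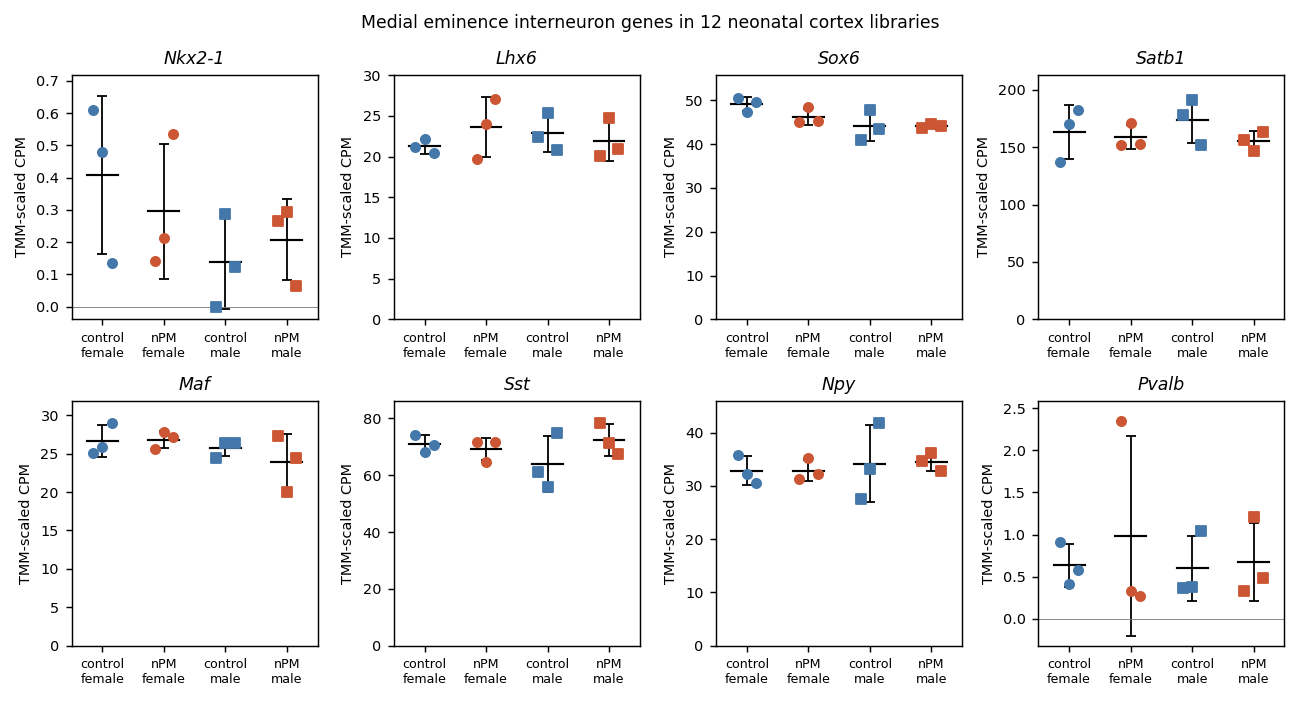
TMM-scaled CPM of each member in the 12 cortex libraries, by exposure and sex (circles for females, squares for males, blue for control, red for nPM), with the mean and SD of each group of 3 as black lines. The nPM and control points overlap in every panel, and Pvalb in nPM female replicate 1 stands highest at 2.35 CPM.

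The question of the main comparison was whether prenatal nPM changed the cortex, and none of the 8 genes differed detectably between exposures. Model 1 was edgeR's quasi-likelihood test with exposure, sex and RIN, restricted to genes counted at least 1 time in each cortex library, and 7 of the 8 members passed that filter. Of all 20857 genes tested, 128 (0.614%) passed the unadjusted cutoff (p under 0.005) and 3 (0.0144%) the adjusted cutoff (p under 0.05), and of the 7 members tested 0 passed either. The ranges of the 6 nPM and 6 control libraries overlapped in all 8 members, and failed to overlap in 0.197% of the genes tested. These shares come to less than 1 gene in 8, so a count of 0 among the members is near the background, and the intervals of the estimates carry the result.

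Nkx2-1 (ENSMUSG00000001496, chr12:56531958-56536908, minus strand, mm10) was at the edge of detection. Its 6 nPM libraries held 2 to 12 counts, with 0.0644 CPM as the lowest, 0.238 as the median and 0.535 as the highest. Its 6 control libraries held 0 to 16 counts, with 0 CPM as the lowest, 0.211 as the median and 0.611 as the highest. The library at 0 was control male replicate 1, where a count of 0 allows up to 0.106 CPM (3 counts), so the gene may still be transcribed there. Both exposures held low and high libraries. The means were 0.251 ± 0.162 CPM in nPM and 0.273 ± 0.234 in control (SD, n = 6 each, exact permutation test, two-sided, p = 0.864), and 0.327 ± 0.214 in control without that library (n = 5, exact permutation p = 0.509). With the filter relaxed to a count in any library, its log2 fold change was -0.11 (SE 0.48, 95% interval -1.06 to 0.85), an interval that holds both a fall and a rise. That fit called 185 genes at the adjusted cutoff against 3 in the main fit, so its SE and interval may not compare with those of the other members.

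Lhx6 (ENSMUSG00000026890, chr2:36081953-36105408, minus strand), the factor that keeps the lineage's identity, had 554 to 842 counts. Its nPM libraries ran from 19.8 CPM through a median of 22.5 to 27.1 CPM, and its control libraries from 20.4 through 21.7 to 25.3 CPM. The lowest and the highest library, nPM female replicates 1 and 3, were both exposed. Exposure gave Lhx6 a log2 fold change of 0.04 (SE 0.08, 95% interval -0.14 to 0.22, edgeR adjusted p = 0.953).

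Sox6 (ENSMUSG00000051910, chr7:115470872-116038796, minus strand), needed for the positioning and maturation of these cells, was the steadiest member. Its nPM libraries ran from 43.7 CPM through 44.8 to 48.4 CPM, and its control libraries from 41.0 through 47.6 to 50.6 CPM. Control male replicate 1 was the lowest and another control male lay below all exposed libraries, while the other 4 controls lay above all exposed libraries but 1. The log2 fold change was -0.04 (SE 0.05, 95% interval -0.14 to 0.06, edgeR adjusted p = 0.916), and -0.0035 without control female replicate 1. Without control male replicate 1 it was -0.07 (SE 0.05), and the means of 45.2 CPM in nPM and 47.7 ± 2.78 in control (SD, n = 5) gave an exact permutation p of 0.0931.

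Satb1 (ENSMUSG00000023927, chr17:51736187-51833290, minus strand), a chromatin organizer that Sst interneurons depend on, had 3438 to 6002 counts and the smallest p of the members. Its nPM libraries ran from 146.8 CPM through 154.9 to 171.1 CPM, and its control libraries from 136.7 through 174.3 to 191.3 CPM, so the controls enclosed the exposed libraries. Its log2 fold change was -0.08 (SE 0.05, 95% interval -0.18 to 0.02, edgeR adjusted p = 0.880), and the exact permutation p was 0.253. Satb1 is also expressed by excitatory neurons of the cortex. Its gene overlaps 6 others, 5 of them on its own strand, with means of 34.7 to 114 counts, and the strand setting of the counting is not given in the sources used here.

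Maf (ENSMUSG00000055435, chr8:115682942-115707794, minus strand) had nPM libraries from 20.01 CPM through 26.4 to 27.8 CPM and control libraries from 24.5 through 26.1 to 29.0 CPM. The lowest library, nPM male replicate 2, lay below all controls and the other exposed libraries within or next to their range. The log2 fold change was -0.04 (SE 0.07, 95% interval -0.19 to 0.10, edgeR adjusted p = 0.941).

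Sst (ENSMUSG00000004366, chr16:23889581-23890844, minus strand) is the member with the best known switch in its promoter, the cAMP response element, through which the activator CREB drives it. The 8 letters TGACGTCA of this element, which read the same on both strands, were searched in the RefSeq promoters (GRCm38.p6, the same build as mm10) from 250 bases before each gene's start to 50 after it. Of the 7 members with a promoter in that table, 1 (Sst) held the element, against 549 of the 27025 genes there with it in any promoter (2.03%), or 588 of all 32851 promoters (1.79%). The stretch around it is shown because it is the only match among the members, with the element in capitals, 48 bases before the gene's start, on the minus strand of chr16:23890859-23890918.

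Sst promoter: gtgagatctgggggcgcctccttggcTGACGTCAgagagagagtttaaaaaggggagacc

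Sst had 1608 to 2433 counts in a library. Its nPM libraries ran from 64.8 CPM through 71.5 to 78.4 CPM, and its control libraries from 56.0 through 69.4 to 74.9 CPM. The lowest controls were male replicates 2 and 1, and the remaining controls lay among the exposed libraries. Exposure gave Sst a log2 fold change of 0.06 (SE 0.06, 95% interval -0.06 to 0.18, edgeR adjusted p = 0.903), and 0.03 without control male replicate 1 (SE 0.06). In bulk RNA, fewer cells of a class and less RNA in each cell cannot be told apart.

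Npy (ENSMUSG00000029819, chr6:49822710-49829507, plus strand) had nPM libraries from 31.3 CPM through 33.7 to 36.1 CPM, within the range of its controls, from 27.6 through 32.8 to 41.8 CPM. Both ends of the range were control males, replicate 1 the lowest and replicate 3 the highest. For Npy the log2 fold change was 0.01 (SE 0.08, 95% interval -0.17 to 0.18, edgeR adjusted p = 0.995), and -0.06 without control male replicate 1 (SE 0.07).

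Pvalb (ENSMUSG00000005716, chr15:78191114-78206400, minus strand) had 6 to 67 counts in a library. Its nPM libraries ran from 0.267 CPM through 0.407 to 2.35 CPM, and its control libraries from 0.364 through 0.496 to 1.05 CPM. The median was thus lower and the mean higher in nPM (0.828 ± 0.823 against 0.617 ± 0.295 CPM, SD, n = 6 each), and nPM female replicate 1 was the highest of all 12. For Pvalb the log2 fold change was 0.41 (SE 0.50, 95% interval -0.66 to 1.49, edgeR adjusted p = 0.920), and it was -0.33 without that library. With this spread between libraries a change of either sign was not detectable.

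**Figure D3:**
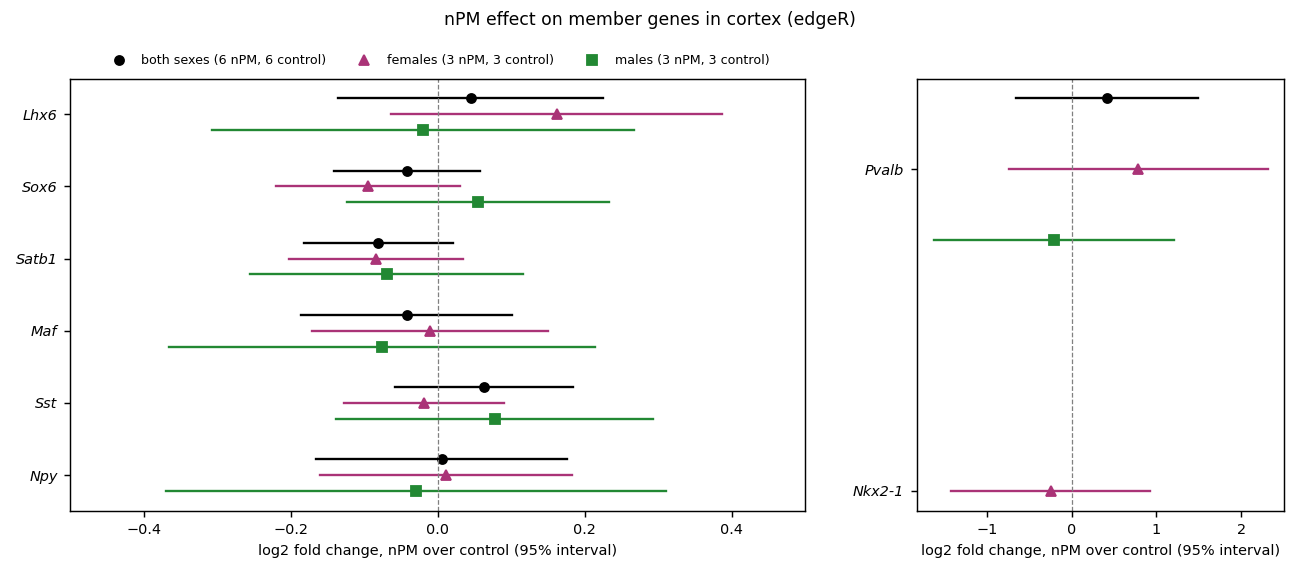
Log2 fold change of nPM over control with its 95% interval (edgeR) for each member, in both sexes (black circles), females (triangles) and males (green squares), with a wider axis for Pvalb and Nkx2-1. All intervals include 0, and Nkx2-1 passed the count filter in females alone.

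The sexes were also fitted separately, with exposure and RIN in the model, because the study looked for responses particular to a sex. In females 4.02% of 21731 genes passed the unadjusted cutoff and 1.11% the adjusted cutoff, and of the 8 members, all of which were tested, 0 passed either. Lhx6 in females was the largest estimate among the well-counted members, with 19.8, 24.03 and 27.1 CPM in nPM and 20.4, 21.2 and 22.2 CPM in control, and a log2 fold change of 0.16 (SE 0.10, edgeR adjusted p = 0.492). The exposed females enclosed the control females, and the estimate without nPM female replicate 3 was 0.0018 and without nPM female replicate 1 was 0.28. Sox6 in females had 45.0, 45.3 and 48.4 CPM in nPM and 47.4, 49.6 and 50.6 CPM in control, with a log2 fold change of -0.10 (SE 0.06, edgeR adjusted p = 0.461).

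In males 0.318% of 21670 genes passed the unadjusted cutoff and 0% the adjusted cutoff. At an unadjusted p under 0.05 edgeR had 978 genes, fewer than the 1 in 20 that no effect would give. At the adjusted cutoff DESeq2 called 3 genes and limma voom 0. Of the 7 members tested in males 0 passed. Sst in males had 67.5, 71.3 and 78.4 CPM in nPM and 56.0, 61.2 and 74.9 CPM in control. The control males were spread wider than the exposed males. The log2 fold change of Sst was 0.08 (SE 0.10, edgeR adjusted p = 0.967), and -0.02 without control male replicate 1. With 3 libraries against 3, the exact permutation test cannot give a p below 0.1, and it gave 0.2 to 1 over the members and sexes.

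The difference of the nPM effect between the sexes was tested as an interaction term in model 2. It passed the unadjusted cutoff in 1.35% of 20857 genes and the adjusted cutoff in 0%, with 2018 genes at an unadjusted p under 0.05, and DESeq2 called 50 and limma voom 0 at the adjusted cutoff. Of the 7 members tested 0 passed. The interaction (males minus females) was -0.23 in Lhx6 (SE 0.17, adjusted p = 0.697) and 0.13 in Sst (SE 0.12, adjusted p = 0.752). Single libraries moved both, to -0.03 in Lhx6 without nPM female replicate 3 and to 0.26 in Sst without control male replicate 3, neither past a cutoff. That of Satb1 was 0.0010, with a 95% interval of -0.21 to 0.21.

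With RIN in the model, estimates for sex were farther from 0 than those for exposure in Satb1, Sox6 and Sst. The sex effect of model 1 passed the unadjusted cutoff in 0.518% of genes and the adjusted cutoff in 0.0336%, and 0 of the 7 members tested passed either. Satb1 was closest, higher in males by a log2 fold change of 0.15 (SE 0.05, edgeR adjusted p = 0.797). It passed the unadjusted cutoff without nPM female replicate 3 (0.19) and without control male replicate 3 (0.17). Its plain means were 161 ± 16.6 CPM in females and 165 ± 17 CPM in males (SD, n = 6 each, exact permutation p = 0.697). Without RIN in the model its estimate was 0.03 (SE 0.07). Sox6 was lower in males, at 44.1 ± 2.19 against 47.7 ± 2.25 CPM in females (SD, n = 6 each), with an exact permutation p of 0.0173, the smallest of 8 such tests and not adjusted for them, and a log2 fold change of -0.10 in the model (SE 0.05, adjusted p = 0.7996), or -0.03 without control female replicate 1. Sst was -0.13 in males relative to females (SE 0.07, adjusted p = 0.7996), and -0.06 without control male replicate 2 and -0.04 without RIN. The plain means of Sst were 70.2 ± 3.29 CPM in females and 68.2 ± 8.45 CPM in males (SD, n = 6 each, exact permutation p = 0.615). Beside Sst, all 10 genes shared by GABA neurons had model estimates below 0 in males (median -0.24), with Gad1 past the unadjusted cutoff (-0.24, SE 0.07, adjusted p = 0.797), and so had all 11 striatal markers (median -0.42). The plain summed level of the GABA genes averaged 633 CPM in females and 614 CPM in males (exact permutation p = 0.593). That of the striatal markers averaged 413 and 365 CPM (exact permutation p = 0.446). Control male replicate 1 was the lowest library in both sums. The part of striatal tissue or of other GABA neurons in the sex estimate of Sst was not tested.

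Nkx2-1 averaged 0.172 ± 0.126 CPM in males and 0.352 ± 0.214 CPM in females (SD, n = 6 each, exact permutation p = 0.110). With the relaxed filter its log2 fold change was -1.33 (SE 0.52). Without control male replicate 1 it passed the main filter, and the log2 fold change there was -1.07 (SE 0.48). The relaxed fit called 165 genes for sex at the adjusted cutoff against 7 in the main fit, so the 2 SE may not compare. Markers of the basal forebrain and pallidum, where Nkx2-1 stays on, had estimates of the same sign. All 7 of the markers tested had estimates below 0 in males, with 3 past the unadjusted cutoff, among them Lhx8 (-1.52, SE 0.41, adjusted p = 0.797) and Zic1 (-0.90, SE 0.13, adjusted p = 0.0175), and their summed level averaged 20.01 CPM in males and 29.0 CPM in females (exact permutation p = 0.0801). The part of this tissue in the level of Nkx2-1 was not tested.

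Each member was also set against Lhx6 of the same library, as the log2 ratio of counts with 0.5 added, to ask whether the output of the lineage shifted relative to its identity factor. The nPM minus control difference of this ratio was 0.04 for Sst, -0.02 for Npy, -0.08 for Sox6, -0.13 for Satb1 and -0.09 for Maf (n = 6 each, exact permutation p = 0.818, 0.874, 0.422, 0.234 and 0.513). For the scarce genes it was 0.02 for Pvalb and 0.28 for Nkx2-1 (exact permutation p = 0.976 and 0.781), and the latter was -0.39 without control male replicate 1. None of the 7 ratios differed between exposures beyond the spread of the libraries. Bulk counts do not show which cells gave the RNA, so a ratio need not reflect this lineage alone. The part of other cells in the counts of any member, Sox6 and Maf among them, was not tested.

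Across the 12 cortex libraries none of the 7 relations of a member to Lhx6 passed a permutation test. Over all 12 libraries the r farthest from 0 was that of Sst, with Pearson's r = -0.47 (permutation p = 0.125, 0.469 adjusted over the 7 relations) and Spearman's rho = -0.46 (permutation p = 0.134, adjusted p = 0.409). Without the pair of libraries farthest from the median of Lhx6 the r of Sst was -0.50 (permutation p = 0.140), and within sequencing lane 2 it was -0.70 (n = 8, exact permutation p = 0.0565), while lane 3 held too few cortex libraries. With the values centred within each sex and exposure, r was -0.46 for Sst and 0.63 for Nkx2-1 (rho 0.66), the latter on few counts. The centred values had no test. Uncentred, the r of Nkx2-1 was 0.39 over all 12 libraries (permutation p = 0.201). It was 0.14 without the pair farthest from the median of Lhx6 (permutation p = 0.695) and -9.5e-06 within lane 2. The r of Maf was -0.54 without the pair farthest from the median (permutation p = 0.111). The 5 genes most like Lhx6, among 14468 genes with a mean of at least 50 counts, were Nectin2 (r = 0.94, rho = 0.77), 5930420M18Rik (r = 0.94, rho = 0.90), Erh (r = 0.92, rho = 0.81), 6330403K07Rik (r = 0.91, rho = 0.94) and Podxl2 (r = 0.91, rho = 0.86), over 12 libraries. By the same measure Sst stood in place 12869 and Satb1 in place 5466. The 5 genes were picked as the highest of 14468 r values over 12 libraries, so their r is selected, and it had no test.

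Sequencing lane was not tied to exposure, with 4 nPM and 4 control cortex libraries in lane 2 and 2 of each in lane 3. Lhx6 went from -0.04 in lane 2 to 0.22 in lane 3 on the log2 scale of nPM over control, Sst from 0.14 to -0.06 and Npy from 0.09 to -0.15. Pvalb was 1.02 in lane 2 and -1.11 in lane 3, and Nkx2-1 was -0.60 and 1.21. Sox6 (-0.04 and -0.06), Satb1 (-0.11 and -0.08) and Maf (-0.02 and -0.10) were lower in nPM in both lanes, by less than the spread of the libraries.

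Beside the members, 30 other genes of the medial eminence lineage and of interneuron migration were counted in the same fit, from a list that includes Lhx8, Erbb4 and Cxcr4. Of the 28 tested, 15 had estimates above and 13 below 0, with a median log2 fold change of 0.02 beside -0.0024 over all 20857 genes tested. Chodl, a marker of the long-range projecting Sst and Nos1 neurons, passed the unadjusted cutoff (0.71, SE 0.16, edgeR adjusted p = 0.493), and 0 of the 28 passed the adjusted cutoff in the edgeR fit. With DESeq2 Chodl passed the adjusted cutoff (0.72, SE 0.17, DESeq2 adjusted p = 0.0154), and with limma voom it did not (limma voom adjusted p = 0.511). Cort, a neuropeptide close to Sst, had a log2 fold change of 0.06 (SE 0.15). In females 2 genes of the list passed the adjusted cutoff, Chodl (1.05, SE 0.18, edgeR adjusted p = 0.0183) and Kcnc2 (-0.26, SE 0.05, edgeR adjusted p = 0.0431), a potassium channel of fast-spiking neurons that was named after its values were seen. With 1 of the 6 female libraries left out, Chodl kept its adjusted call in 2 of the 6 fits and Kcnc2 in 0. In females Kcnc2 also lost its call with limma voom (limma voom adjusted p = 0.053) and without RIN (edgeR adjusted p = 0.0875). It kept the call with DESeq2 (DESeq2 adjusted p = 0.0360), and Chodl kept its own in each of these fits. In males the estimates were 0.28 for Chodl (SE 0.24) and -0.05 for Kcnc2 (SE 0.10), and the interaction did not pass for either (edgeR adjusted p = 0.472 and 0.552).

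Of the genes that all GABA neurons share, all 10 had estimates above 0 in nPM, with a median log2 fold change of 0.16. Gad1, which makes GABA, passed the unadjusted cutoff (0.26, SE 0.06, edgeR adjusted p = 0.493). Of the 14 genes of the caudal ganglionic eminence, 9 had estimates above and 5 below 0 with a median of 0.07, and Nr2f2 (0.57, SE 0.08, adjusted p = 0.0441), the transcription factor COUP-TFII, and Calb2 (0.49, SE 0.10, adjusted p = 0.301), which encodes calretinin, passed the unadjusted cutoff. With any 1 of 7 libraries left out (control female replicates 1, 2 and 3, nPM female replicates 2 and 3, and nPM male replicates 2 and 3), 0 genes passed the adjusted cutoff, so the call of Nr2f2 was lost. That call was also lost without control male replicate 1 (edgeR adjusted p = 0.0727) and without control male replicate 2 (edgeR adjusted p = 0.0633), where other genes passed. Calb2 passed the adjusted cutoff of model 1 with DESeq2 (DESeq2 adjusted p = 0.00135) and not with limma voom (limma voom adjusted p = 0.327). In females alone Nr2f2 (0.61, SE 0.11, edgeR adjusted p = 0.0202) and Calb2 (0.51, SE 0.10, edgeR adjusted p = 0.0277) passed the adjusted cutoff, calls that held in 1 and in 2 of the 6 fits with 1 female library left out. Without RIN the female call of Calb2 was lost (edgeR adjusted p = 0.0872) and that of Nr2f2 was kept (edgeR adjusted p = 0.00948). In males the estimates were 0.59 for Nr2f2 (SE 0.11, edgeR adjusted p = 0.962), past the unadjusted cutoff, and 0.38 for Calb2 (SE 0.16). Over the 14 genes the median was 0.012 in females and 0.0091 in males. In each sex 2 of them passed the unadjusted cutoff upward and 1 downward. The downward gene was Vip in females (-0.39, SE 0.09, edgeR adjusted p = 0.0685) and Cck in males (-0.47, SE 0.12, edgeR adjusted p = 0.962). Vip and Cck were named after their values were seen.

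Markers of neighbouring tissue rich in GABA neurons were counted beside them. All 11 striatal markers had estimates above 0 (median 0.21, 0 past the unadjusted cutoff), and so had all 7 tested of the basal forebrain and pallidum (median 0.41), where Chat, of the cholinergic neurons, passed the unadjusted cutoff (1.35, SE 0.38, adjusted p = 0.687). The summed striatal level was 368 to 461 CPM in nPM and 171 to 590 CPM in control, and its log2 ratio of nPM over control went from 0.17 with all libraries (exact permutation p = 0.483) to 0.02 without control male replicate 1 (n = 6 and 5, p = 0.918 by the same exact test). That of the basal forebrain and pallidum was 18.4 to 40.5 CPM in nPM and 12.3 to 34.9 CPM in control (exact permutation p = 0.143, and 0.258 without that library). The log2 ratio of the summed shared GABA genes went from 0.12 (exact permutation p = 0.110) to 0.09 without that library (exact permutation p = 0.216). How far striatal or pallidal tissue set the level of any gene named here was not tested. Sst and Npy are also made in those tissues.

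The 10 markers of cortical excitatory neurons had 1 estimate above and 9 below 0 and a median of -0.10, with 0 past the unadjusted cutoff. Their summed level was 1038 to 1140 CPM in nPM and 1118 to 1256 CPM in control (exact permutation p = 0.00649, and 0.0108 without control male replicate 1). That p was the smallest over the summed marker lists and was not adjusted for them. Slc17a7, with 7918 to 19012 counts in a library, weighs most in the sum. Satb1, at -0.08, lay near the median of the 10 markers, and its part in excitatory neurons was not tested.

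**Figure D4:**
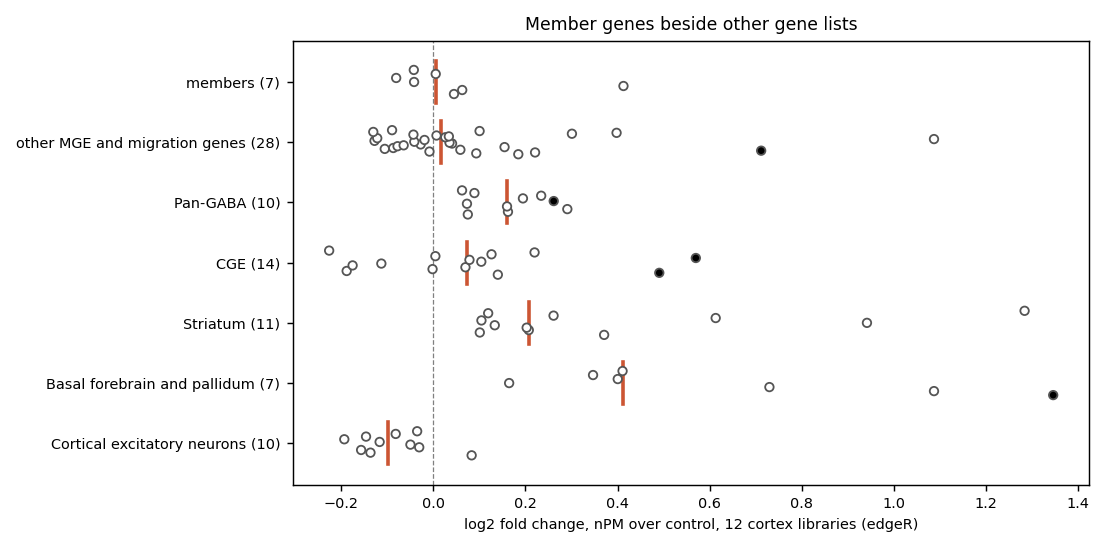
Log2 fold change of nPM over control in cortex (edgeR, model 1) for the 7 members tested and for other gene lists, 1 circle per gene, filled where the unadjusted p is under 0.005, with the median of each list as a bar and the number of genes tested in brackets (Lhx8 is in 2 lists). Members and other medial eminence genes (15 of the latter above and 13 below 0) lie on both sides of 0, with Pvalb, Chodl and Lhx8 well to the right. Striatal, pallidal and shared GABA genes lie to the right of 0, and excitatory neuron markers mostly to the left.

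Of 16 hypothalamic markers 4 could be tested (median -0.19), and Trh, a releasing hormone also made in other brain regions, was lower in nPM at the unadjusted cutoff (-0.33, SE 0.10, adjusted p = 0.779). The summed level of the list was 8.85 to 10.9 CPM in nPM and 9.33 to 12.3 CPM in control. Of its members Nkx2-4 and Hmx3 were at 0 in every cortex library and Sim1 reached 25 counts, and the part of hypothalamic tissue in the level of Nkx2-1 was not tested. Of 7 markers of thyroid and lung, the organs outside the brain where Nkx2-1 acts, 3 could be tested (median -0.17) and Scgb1a1 was at 0 in every library. The lists of oligodendrocyte lineage, microglia, endothelium and erythroid genes had medians of -0.02, -0.14, 0.07 and -0.03, and the 5 choroid plexus genes, listed after values were seen, had a median of 0.39, each with 0 genes past the unadjusted cutoff. The summed choroid plexus level had a log2 ratio of nPM over control of 0.40 (exact permutation p = 0.180), and 0.16 without control male replicate 1 (exact permutation p = 0.357).

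In blood the members split by gene, and levels there are given without a test. Lhx6 had 0 counts in 6 of 12 blood libraries, Sst in 7, Npy in 6, Nkx2-1 in 11 and Pvalb in 4. Sox6 was the exception, at 55.5 to 68.2 CPM (of the library total, without TMM) in nPM blood and 50.9 to 57.7 CPM in control blood, against a median of 45.4 CPM in cortex. Sox6 is known to act in maturing red cells, whose globin genes took 66.2 to 76.8% of the counts in 11 of the blood libraries. Satb1, also a lymphocyte factor, ran from 2.17 to 28.5 CPM in blood.

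Blood control female replicate 2 stood apart from the others, with 50.1% of its counts on globin genes and 22461 genes with a count, against 13254 to 17273 in the other 11. It held 1062 counts of Maf, 604 of Satb1 and 144 of Npy, where the other blood libraries reached 27, 559 and 5. Maf without it ran from 0.0736 to 1.46 CPM in blood, against a median of 25.9 CPM in cortex. The study's methods left a blood sample out for its distinct count distribution and do not name it. The other blood ranges given here keep control female replicate 2.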

How the data were processed

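RNA of cortex and blood was depleted of ribosomal RNA and sequenced, and the authors trimmed reads with Trimmomatic, used HISAT2 for alignment to mm10 and featureCounts 1.5.0-p3 for counting over Gencode genes. The deposited table holds read counts, not normalized. The authors' gene table gives each gene's length, used here for RPKM, and a mean RPKM over all libraries, which was not used. Strandedness is not given in the sources used here.

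Counts of the 12 cortex libraries were tested with edgeR 4.0.16 (R 4.3.3, quasi-likelihood F test, two-sided, TMM, RIN as covariate) restricted to genes counted at least 1 time in each library fitted, with Benjamini-Hochberg adjustment over all genes tested. The study's cutoffs were kept, 0.005 for unadjusted and 0.05 for adjusted p-values. Single values had exact permutation tests (smallest p 0.00216 for 6 against 6), and correlations 100000 resamples on log2 (CPM + 0.5). The floor of 3 counts for a count of 0 covers counting error only.

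The alternatives were limma voom 3.58.1 (the study's tool), DESeq2 1.42.0, RLE normalization, other count filters, no RIN, a lane covariate and leaving out each library. The members, lists and tests were chosen with earlier results of these data known, and the choroid plexus list and the values without control male replicate 1 were chosen after seeing values. Named were all members, listed genes past the unadjusted cutoff in model 1, up to 2 defining genes of a list and the 5 genes most like Lhx6. Blood was used for levels only.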

Additional observations from a re-analysis of the deposited data

Results flagged for a closer look

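The gap of the highest or lowest library to its neighbour was compared with the range of its group of 6 in 32 groups of a member, tissue and exposure, and 9 stood out. For normally distributed values chance alone flags about 1 in 20 groups. That rate does not hold for groups with few counts or many at 0, so the 9 are not read as an excess. In cortex the library that stood out was nPM female replicate 2 for Sox6, at 48.4 CPM against 43.7 to 45.3 CPM in the other exposed libraries. The other 8 were in blood, most at few counts. Blood control female replicate 2 stood out for Maf (50.2 CPM), Npy (6.80 CPM), Sst (0.661 CPM) and Lhx6 (0.614 CPM). Blood nPM male replicate 2 stood out for Sst (1.25 CPM) and Npy (0.271 CPM), nPM male replicate 1 for Lhx6 (0.229 CPM) and control male replicate 1 for Nkx2-1 (0.0988 CPM).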

How the results depend on the processing

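Counts of members called stayed at 0 under every alternative but the sex effect, where they were 0 to 1 with 1 library left out. Genes called at the unadjusted cutoff with a count in any library were 526 in model 1, 1642 in females, 418 in males, 787 for the interaction and 460 for sex, and at the adjusted cutoff 185, 1280, 155, 379 and 165. DESeq2 gave 22, 443, 3, 50 and 26 at the adjusted cutoff, and model 1 gave 1 without RIN and 1 with lane. With 1 library left out, unadjusted calls were 68 to 315 in model 1, 422 to 980 in females, 42 to 214 in males, 159 to 403 for the interaction and 42 to 427 for sex, and adjusted calls 0 to 6, 23 to 383, 0 to 8, 0 to 1 and 5 to 8. The lowest and highest unadjusted counts of model 1 came without nPM female replicate 2 and without nPM male replicate 3, and the highest counts of males and of sex without control male replicate 1 and without nPM male replicate 3.

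Signs turned in the estimates below, and 0 of the turned estimates passed a cutoff. Without RIN these were Maf in females (0.007354), Pvalb (0.1728) and Npy (0.01712) in males, and the interaction of Satb1 (-0.1181) and Npy (0.009015). The r of Npy with Lhx6 turned to 0.09111 without the 2 libraries farthest from the median and 0.1786 in lane 2. With 1 library left out, model 1 ranged from -0.01552 to 0.09839 in Lhx6, -0.09152 to 0.0119 in Maf, -0.05528 to 0.07981 in Npy and -0.334 to 0.7293 in Pvalb. Females ranged from -0.07466 to 0.06083 in Maf, -0.6194 to 0.2398 in Nkx2-1, -0.06513 to 0.08064 in Npy, -0.9159 to 1.709 in Pvalb and -0.04023 to 0.02158 in Sst. Males ranged from -0.1039 to 0.1725 in Lhx6, -0.1629 to 0.0004335 in Maf, -0.247 to 0.2259 in Npy, -0.67 to 0.5666 in Pvalb, -0.1679 to 0.01002 in Satb1 and -0.01501 to 0.2204 in Sst. The interaction ranged from -0.1748 to 0.01878 in Maf, -0.1922 to 0.1677 in Npy, -1.889 to 0.8355 in Pvalb and -0.07702 to 0.1012 in Satb1, and the sex effect from -0.08355 to 0.1174 in Lhx6, -0.03309 to 0.09451 in Npy and -0.9742 to 0.09532 in Pvalb. Ratios to Lhx6 ranged from -0.1479 to 0.001058 for Maf, -0.3886 to 0.6509 for Nkx2-1, -0.08174 to 0.06 for Npy, -0.4099 to 0.288 for Pvalb and -0.05736 to 0.08456 for Sst. The cause was not tested.

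No paired analysis was possible because the labels pair no library with another: replicate numbers were given in accession order, and a sequencing lane held several libraries of each exposure and was fitted as a covariate. The spread between libraries, beside few counts, limits Pvalb and Nkx2-1, and the litter of each pup is not known here.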
